A study of Homo sapiens with 6 samples.

Results

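The genes described here are the RNA genes that carry small RNAs inside them: the small nucleolar RNA host genes (SNHG) and the microRNA host genes (MIRHG). They were taken as the genes of the table whose symbol was SNHG followed by digits, or began with MIR and ended with HG. The rule found 87 of the 58884 genes listed, 24 SNHG genes and 63 MIRHG genes. RNA-seq compared 2 untreated human esophageal squamous cell carcinoma (ESCC) cultures, with 3 libraries each. KYSE70 is an established ESCC line in which NFE2L2, the gene of the transcription factor NRF2, is mutated. NRF2null-KYSE70 was derived from KYSE70 by CRISPR-Cas9 with a guide against exon 2 of NFE2L2, and grown from a single cell, so both lines carry the KYSE70 background. The null line is 1 clone, so the differences between its libraries come from culture and preparation, and other clones were not sampled. The study's Western blots also show a faint shorter NRF2 band in the clone, and p-values below measure only the spread between these samples.

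Host genes are transcribed like other genes and spliced. Most small nucleolar RNAs (snoRNAs) of vertebrates are released from their introns, and then guide the chemical modification or processing of ribosomal RNA, while a microRNA hairpin is cut out of the host transcript by DROSHA with DGCR8 and then by DICER1. The spliced remainder of many SNHG transcripts carries a 5′ terminal oligopyrimidine tract, the run of pyrimidines at the start of transcripts for ribosomal proteins, and is degraded in the cytoplasm by nonsense-mediated decay. NRF2 activates genes through the antioxidant response element, whose core is TGACNNNGC.

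The microRNAs whose host genes differed most between the lines are shown first, because these are the products that the host transcripts can give. Sequences are the mature microRNAs of RefSeq on GRCh38.p14, 5′ to 3′, with the seed (bases 2 to 8, the part that pairs with target transcripts) in capitals. The first 3 come from the 2 host genes that were higher in NRF2null-KYSE70, the other 4 from the host genes that were lower, and all 7 have different seeds.
hsa-miR-137-3p: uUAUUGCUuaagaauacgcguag
hsa-miR-100-5p: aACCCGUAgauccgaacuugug
hsa-miR-125b-5p: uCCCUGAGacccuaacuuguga
hsa-miR-193b-3p: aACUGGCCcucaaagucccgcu
hsa-miR-365a-3p: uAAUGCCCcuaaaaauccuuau
hsa-miR-31-5p: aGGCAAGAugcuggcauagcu
hsa-miR-210-3p: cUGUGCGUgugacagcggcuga

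The RefSeq set used lacked some hairpins that the GENCODE annotation held, namely MIR22 in MIR22HG, MIR3936 in MIR3936HG and MIR181B2 in MIR181A2HG. In the RefSeq set, a hairpin lay inside 19 of the host genes with enough reads to be tested. These were 18 MIRHG genes and SNHG20, and their RefSeq hairpins numbered 34. The seed GAGGUAG of the let-7 family, was carried by 2 of these hosts, MIR100HG (hsa-let-7a-5p) and MIRLET7BHG (hsa-let-7a-5p and hsa-let-7b-5p). The sequence of hsa-let-7a-5p was the same from both loci.
hsa-let-7a-5p: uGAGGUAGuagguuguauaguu
hsa-let-7b-5p: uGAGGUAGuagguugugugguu

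The starts of the host genes are shown next, because a pyrimidine run there is the sequence feature known from many SNHG transcripts. The RefSeq promoters (250 bases before to 50 after the start) were searched for a run of at least 6 pyrimidines (C or T, on the gene's strand). The run had to reach within 5 bases of the annotated start, on either side. It was found in 10 of 15 tested SNHG genes with an entry (66.7%), in 5 of 18 tested MIRHG genes (27.8%) and in 22.8% of all 27303 promoters. A run that ends before the start is not part of the transcript. These shares are therefore not shares of transcripts that begin with pyrimidines. In the examples, each 41 bases centred on the start and read 5′ to 3′ on the gene's strand, the longest such run is in capitals. In SNHG7 the marked run ended before the start, and a run of 6 that spans the start is left in small letters. In SNHG8 only the last base of the run lies at the start.
SNHG19, chr16:2155338-2155378, minus strand: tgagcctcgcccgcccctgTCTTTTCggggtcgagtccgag
SNHG8, chr4:118278742-118278782, plus strand: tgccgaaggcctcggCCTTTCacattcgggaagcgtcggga
SNHG16, chr17:76557744-76557784, plus strand: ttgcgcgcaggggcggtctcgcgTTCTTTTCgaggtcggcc
SNHG7, chr9:136728164-136728204, minus strand: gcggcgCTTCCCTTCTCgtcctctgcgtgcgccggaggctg
MIR193BHG, chr16:14301361-14301401, plus strand: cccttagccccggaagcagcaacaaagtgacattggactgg
MIR137HG, chr1:98049673-98049713, minus strand: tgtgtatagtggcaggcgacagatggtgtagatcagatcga

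The SNHG genes with a run included one that fell (SNHG19), one that rose (SNHG8) and one that passed no test (SNHG16), as described below. The NRF2 core motif TGACNNNGC, searched on both strands of the same promoters, was found in 2 of 15 SNHG promoters (SNHG20 and SNHG4, 13.3%), in 2 of 18 MIRHG promoters (MIR503HG and MIRLET7BHG, 11.1%) and in 13.6% of all promoters. None of the 7 genes with the largest differences was among these 4, although SNHG9 had no entry. For MIR100HG, the start used in both searches lay well inside the GENCODE gene, downstream of the miR-100 and let-7a-2 hairpins. The start used also lay inside the gene for others, among them MIRLET7BHG, MIR4435-2HG and SNHG20. The outer starts of these genes were therefore not searched, and the motifs of MIRLET7BHG and SNHG20 lie near inner starts. A match describes letters in this window and not a bound site.

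The libraries held between 52072801 and 63975313 reads assigned to genes, and values are DESeq2-normalized counts, in which 1 read was worth 0.889 to 1.14. NFE2L2, the targeted gene, was at 9928 ± 102 in KYSE70 and 6093 ± 318.8 in NRF2null-KYSE70 (mean ± SD, n = 3), which is 61.4% of the parental level. Squamous markers were present in both lines (KRT14 lowest, at 46.4 in KYSE70). All 11 were tested and differed by adjusted p (beside 57.6% of all genes tested), and of these 5 rose and 6 fell. Their summed level was 351030 to 358610 in KYSE70 and 260530 to 272040 in NRF2null-KYSE70. Of the 6 fibroblast markers only COL1A1 reached the level for testing (1232 against 554), while PDGFRB was at 0 in KYSE70 and at 12.2, 14.7 and 16.0 in NRF2null-KYSE70, COL1A2 and DCN were at 0 in both, and the summed level, most of it COL1A1, was 1172 to 1336 against 479 to 627. Among the leukocyte markers PTPRC alone reached the level for testing (0.351 against 43.6). Of the 3 endothelial markers VWF was tested (142 against 353), PECAM1 and CDH5 were at 0 in KYSE70 and under 1 normalized count in the null line, and the summed level was 133 to 149 against 275 to 450.3. The part of these cell type markers in the host gene results was not tested. In bulk RNA, fewer cells with a transcript and less of it per cell cannot be told apart.

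Of the 87 host genes, 39 had a mean of at least 10 normalized counts over the 6 libraries and were tested, 18 SNHG genes and 21 MIRHG genes. Another 25 had no read in any library (2 SNHG and 23 MIRHG genes, MIR155HG among them), and 23 had reads but stayed under the filter. The tested gene nearest the filter was MIR181A2HG, with a mean of 10.0, and the nearest one left out was MIR2052HG, at 8.42. MIR2052HG was at 1.78, 0.907 and 1.05 in the KYSE70 libraries and at 26.4, 7.84 and 12.6 in the NRF2null-KYSE70 libraries, so the lines did not overlap, with at most 2 reads in each parental library. Per kilobase of exon, SNHG19 had the highest level in KYSE70 (2340 normalized counts per kb), ahead of SNHG1 (1181), SNHG16 (858) and MIR205HG (806). In NRF2null-KYSE70 SNHG1 led at 1147 per kb, followed by MIR205HG (989), SNHG19 (954) and SNHG16 (908). The exon length joins all annotated isoforms. For SNHG1 (3976 bases) and SNHG19 (614 bases) it equals the whole annotated gene, so this order depends on the annotation.

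The comparison of the lines asks which of these transcripts differ when NFE2L2 has been cut. A gene was past the threshold at a limma adjusted p (Benjamini-Hochberg over all 15994 genes tested, two-sided) under 0.05 when its log2 fold change was also 1 or more in size. Fold changes give the null line relative to its parent, from log2 values of the normalized count plus 1. Of the 39 host genes 7 passed (17.9%), beside 14.7% of all genes tested, with 2 higher (5.13%, beside 7.23% of all genes) and 5 lower (12.8%, beside 7.43%). By adjusted p alone 24 differed (61.5%, beside 57.6% of all genes), 9 higher (23.1%, beside 29.3%) and 15 lower (38.5%, beside 28.3%). For 25 there was no overlap between the lines (64.1%, beside 63.4%), with the null line higher for 9 (23.1%, beside 32.1%) and lower for 16 (41%, beside 31.3%). In either direction together the shares lay near those of all genes, and by direction more of the host genes were lower and fewer higher, a difference in shares that was not tested.

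The counts were taken separately for the SNHG and the MIRHG genes. Among the 18 SNHG genes 14 differed by adjusted p (77.8%, beside 57.6% of all genes), 10 of them lower (55.6%, beside 28.3%), and 2 passed the fold threshold (11.1%, beside 14.7%), both lower. Among the 21 MIRHG genes 10 differed (47.6%, beside 57.6%), 5 in each direction, and 5 passed the fold threshold (23.8%, beside 14.7%), 2 higher and 3 lower. The median log2 fold change was -0.226 over the SNHG genes and -0.164 over the MIRHG genes, beside -0.00702 over all genes tested. The MIRHG median turned positive under several alternatives (0.121 without a filter). Whether the families differ from each other was not tested.

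**Figure D1:**
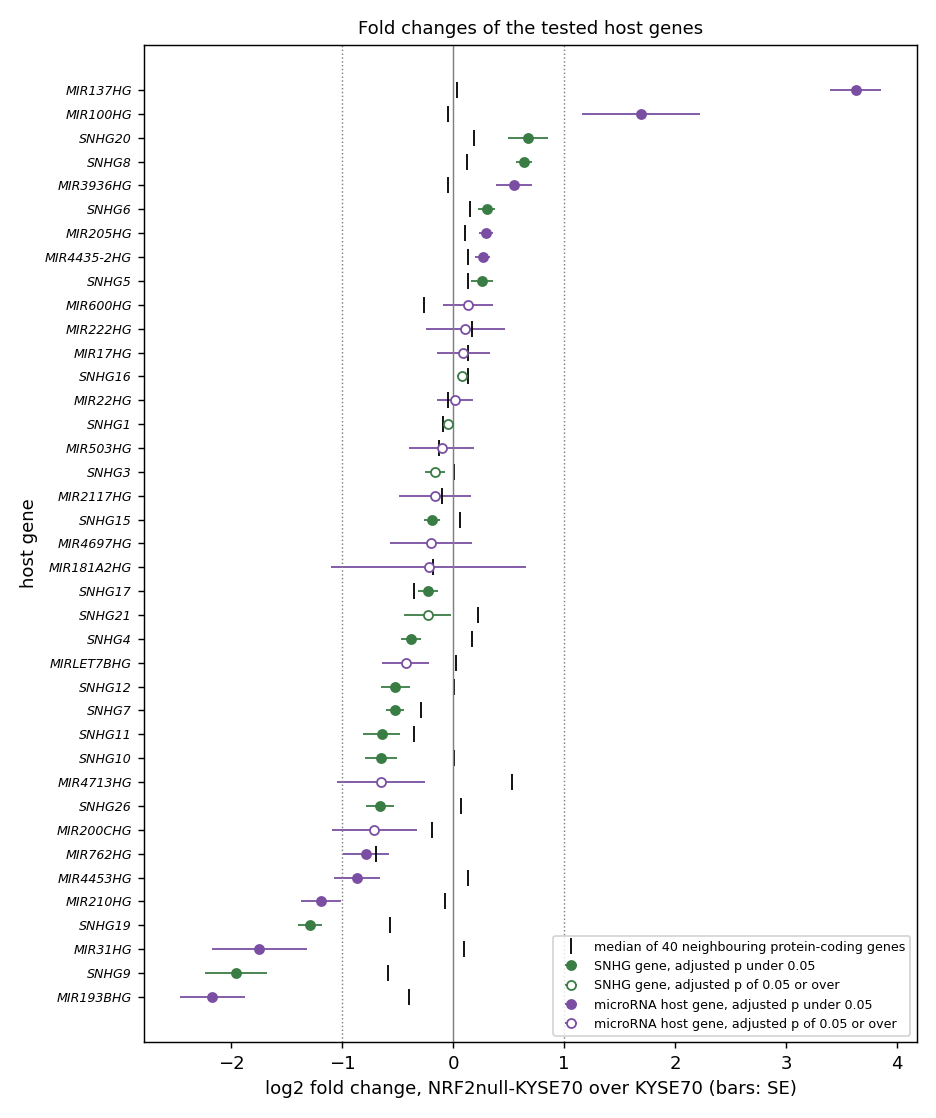
Fold changes of the 39 tested host genes, as the log2 fold change of NRF2null-KYSE70 over KYSE70 (points, with bars of 1 SE from limma); filled points have an adjusted p under 0.05, green marks SNHG and purple MIRHG genes, and black ticks give the median of the 40 nearest tested protein-coding genes. MIR137HG stands far right at 3.63 and MIR193BHG far left at -2.17, and most SNHG genes lie between -0.65 and 0.68.

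MIR137HG (ENSG00000225206, chr1:97933474-98049871 on hg38, minus strand), the host of miR-137 and miR-2682, showed the largest difference. Its normalized counts were 42.7, 23.6 and 40.1 in KYSE70 and 384, 467 and 462 in NRF2null-KYSE70. Every library of the null line was several times above every parental library. The mean rose from 35.4 ± 10.4 to 438 ± 46.3 (SD, n = 3), a 12.4-fold ratio (log2 fold change 3.63, SE 0.23, limma adjusted p = 3.76e-08). The rows of both hairpin genes inside it, MIR137 and MIR2682, had no read in any library.

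The gene overlaps DPYD, which encodes dihydropyrimidine dehydrogenase, the enzyme that starts the breakdown of uracil, thymine and the drug 5-fluorouracil. DPYD lies on the same strand and shares 494 exon bases with MIR137HG in the annotation. Whether reads of those bases were assigned to a gene or left out of the counts was not stated. DPYD rose as well, from 1141 ± 125 to 4552 ± 198 (log2 fold change 2.00, limma adjusted p = 3.82e-10). The 40 tested protein-coding genes nearest to MIR137HG had a median log2 fold change of 0.04, a value called the neighbourhood median below.

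MIR100HG (ENSG00000255248, chr11:122028325-122556721, minus strand) hosts miR-100, let-7a-2 and miR-125b-1. It was at 4.45, 9.98 and 6.33 in KYSE70 and at 34.5, 27.5 and 13.7 in NRF2null-KYSE70, so the lines did not overlap but the null libraries were spread. The means were 6.92 ± 2.81 and 25.2 ± 10.6 (log2 fold change 1.69, SE 0.53, limma adjusted p = 0.0158). This call rested on few reads, and it was lost without NRF2null-KYSE70 library 1 (limma adjusted p = 0.0732) or library 2 (0.0566).

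MIR193BHG (ENSG00000262454, chr16:14301389-14331067, plus strand), the host of miR-193b and miR-365a, fell the most. Its libraries were at 183, 143 and 150 in KYSE70 and at 22.3, 34.3 and 52.5 in NRF2null-KYSE70, with a wide gap between the lines. The mean was 159 ± 21.4 against 36.4 ± 15.2, so 22.9% remained (log2 fold change -2.17, SE 0.29, limma adjusted p = 3.81e-05).

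MIR31HG (ENSG00000171889, chr9:21380073-21559891, minus strand) hosts miR-31 in the region of the type I interferon genes. It was at 46.2, 26.3 and 42.2 in KYSE70 and at 7.10, 13.7 and 11.4 in NRF2null-KYSE70. The lines did not overlap, and all values were low. The mean was 38.2 ± 10.5 against 10.7 ± 3.36 (log2 fold change -1.74, SE 0.43, limma adjusted p = 0.00358). None of its 4 overlapping protein-coding genes (IFNA1, IFNA2, IFNA8 and IFNE) reached the level for testing.

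MIR210HG (ENSG00000247095, chr11:565657-568457, minus strand) carries miR-210, a microRNA known for its induction by hypoxia. Its libraries were at 336, 469 and 581 in KYSE70 and at 218, 176 and 199 in NRF2null-KYSE70. The parental libraries differed among themselves more than the null libraries did, and the lowest of them stayed above the highest of the null line. The mean was 462 ± 123 against 197 ± 21.3 (log2 fold change -1.19, SE 0.18, limma adjusted p = 9.45e-05).

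SNHG9 (ENSG00000255198, chr16:1964895-1965509, plus strand) is a short gene that carries the snoRNA SNORA78. It was at 108, 76.2 and 90.7 in KYSE70 and at 20.3, 26.5 and 21.7 in NRF2null-KYSE70, again without overlap. The mean was 91.8 ± 16.2 against 22.8 ± 3.25 (log2 fold change -1.96, SE 0.28, limma adjusted p = 6.01e-05). Its start lies 54 bases from that of RPS2, a protein of the small ribosomal subunit transcribed the other way, which fell less (171195 ± 21506 against 130226 ± 5572, log2 fold change -0.39, limma adjusted p = 0.00109).

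SNHG19 (ENSG00000260260, chr16:2154792-2155405, minus strand) carries SNORD60. It was at 1235, 1418 and 1657 in KYSE70 and at 520.3, 634 and 602 in NRF2null-KYSE70, so the highest null library had less than the lowest parental one. The mean was 1437 ± 211 against 585 ± 58.7 (log2 fold change -1.29, SE 0.11, limma adjusted p = 6.41e-07). TRAF7, a ubiquitin ligase gene whose start lies 293 bases away on the other strand, fell by 0.33 on the log2 scale (limma adjusted p = 0.000119). RPS2 and TRAF7 both turned to 0.23 after subtraction of their neighbourhood medians of -0.62 and -0.56.

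**Figure D2:**
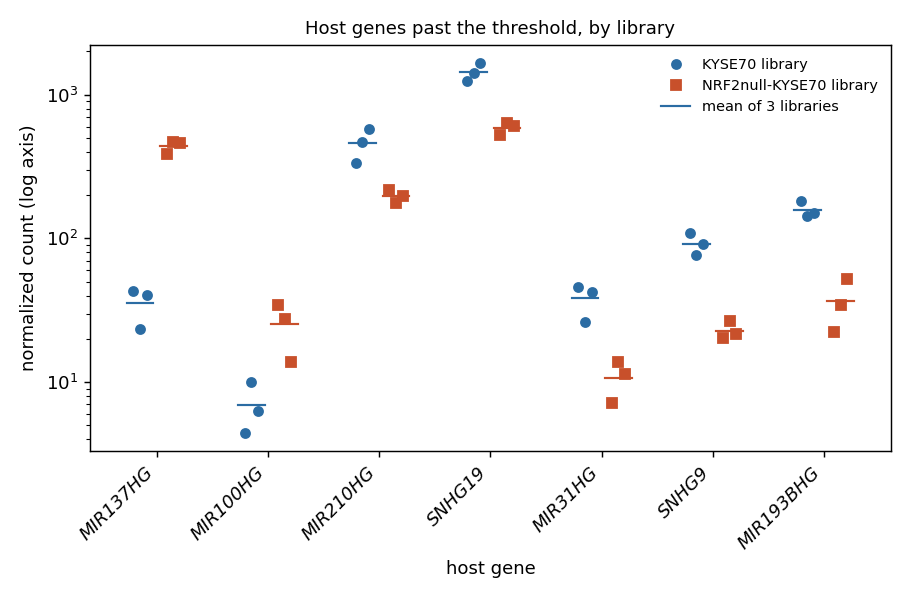
Normalized counts (log axis) of the 7 host genes past the threshold in each library, with KYSE70 as blue circles, NRF2null-KYSE70 as red squares and a bar at the mean of 3 libraries. The lines do not overlap for any of the 7, and MIR137HG and MIR100HG are the 2 that are higher in the null line.

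Of the 5 genes that fell past the threshold, 3 lay on chromosome 16. All 4 tested host genes on chromosome 16 (SNHG19, SNHG9, MIR193BHG and MIR762HG) were lower in NRF2null-KYSE70 by adjusted p, beside 28.3% of all genes tested. The protein-coding genes around them were lower too, with neighbourhood medians between -0.70 and -0.40. After subtraction of the neighbourhood median, MIR193BHG was at -1.77, SNHG9 at -1.37 and SNHG19 at -0.72, so SNHG19 no longer passed the fold threshold. MIR762HG, at 112 ± 11.4 against 64.4 ± 3.74 (log2 fold change -0.79), was close to its neighbourhood median of -0.70 and to BCL7C, the gene it overlaps (-0.78). On chromosome 20, SNHG17 (log2 fold change -0.22, limma adjusted p = 0.0429) and SNHG11 (-0.64, 0.00498) shared a neighbourhood median of -0.35, and were at 0.12 and -0.29 after its subtraction.

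The remaining SNHG genes with the highest counts changed by smaller amounts. SNHG8, the host of SNORA24, rose the most among the 8 with the highest counts. It was at 1550, 1633 and 1735 in KYSE70 and at 2328, 2702 and 2660 in NRF2null-KYSE70 (log2 fold change 0.64, SE 0.072, limma adjusted p = 7.18e-06), without overlap. Its exons share 2487 bases with PRSS12, a secreted protease gene on the opposite strand, which rose by more (log2 fold change 1.32, limma adjusted p = 2.59e-09). Because the use of strand in the counting was not stated, reads of the shared bases cannot be assigned to one of the pair.

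SNHG7, the host of SNORA17A and SNORA17B, went the other way. It was at 2037, 1975 and 2120 in KYSE70 and at 1291, 1359 and 1632 in NRF2null-KYSE70, with every null library below every parental one (log2 fold change -0.52, SE 0.084, limma adjusted p = 0.000151). After subtraction of its neighbourhood median of -0.29, SNHG7 was at -0.23 (limma adjusted p = 0.0321). DIPK1B, which overlaps its exons by 1482 bases on the other strand, was at 1534 ± 91.3 and 1566 ± 65.9 (limma adjusted p = 0.725).

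SNHG6, the host of SNORD87, was at 1270.0, 1356 and 1297 in KYSE70 and at 1465, 1727 and 1662 in NRF2null-KYSE70, and rose without overlap (log2 fold change 0.30, limma adjusted p = 0.00371, or 0.117 after subtraction of the neighbourhood median). SNHG5, the host of the SNORD50 snoRNAs, was at 1138, 1176 and 1317 against 1228, 1622 and 1525, and the lines overlapped (log2 fold change 0.26, limma adjusted p = 0.0399). SNHG15, the host of SNORA9, was at 1173 ± 43.0 against 1029 ± 36.4 (log2 fold change -0.19, limma adjusted p = 0.0359). The SNHG5 and SNHG15 calls were near the limit: SNHG5 lost it under 8 of 17 alternatives, and SNHG15 lost it under 4, in each of which 1 library had been left out (any KYSE70 library or NRF2null-KYSE70 library 3).

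The remaining 3 of these 8 SNHG genes, among them SNHG16 and SNHG1 with the highest counts, did not pass the test. SNHG16, the host of the SNORD1 snoRNAs, was at 4884, 4875 and 5107 in KYSE70 and at 5159, 5238 and 5343 in NRF2null-KYSE70, without overlap but with a log2 fold change of only 0.08 (limma adjusted p = 0.155). SNHG1, which carries SNORD22, SNORD25 to SNORD28 and SNORD30 among others, was at 4654, 4755 and 4682 against 4205, 4700.0 and 4771 (log2 fold change -0.05, limma adjusted p = 0.516). Its divergent partner SLC3A2, which encodes the heavy chain of amino acid transporters such as the cystine transporter and starts 51 bases away, rose from 30029 ± 898 to 50897 ± 2396 (log2 fold change 0.76, limma adjusted p = 4.48e-08). SNHG3, the host of the SNORA73 snoRNAs, was at 1298 ± 129 against 1159 ± 93.0 (log2 fold change -0.16, limma adjusted p = 0.135, but 0.0353 with total scaling and 0.0491 without KYSE70 library 1), and RCC1, which starts 37 bases from it on the same strand and shares 242 exon bases, fell by 0.24 on the log2 scale (limma adjusted p = 0.000388).

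Among the less abundant SNHG genes, named here after their values were seen, SNHG20 rose (104 ± 13.5 against 167 ± 12.1, log2 fold change 0.68, limma adjusted p = 0.00567). It shares 460 exon bases and the strand with SEC14L1, which rose by 2.17 on the log2 scale. SNHG4, SNHG12, SNHG10 and SNHG26 fell, with log2 fold changes of -0.38, -0.52, -0.65 and -0.65. Added up over the 18 tested SNHG genes, the normalized counts were 22738, 23261 and 24112 in KYSE70 and 20867, 23042 and 23233 in NRF2null-KYSE70, so that the sums of the lines overlapped while 14 of the genes differed.

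**Figure D3:**
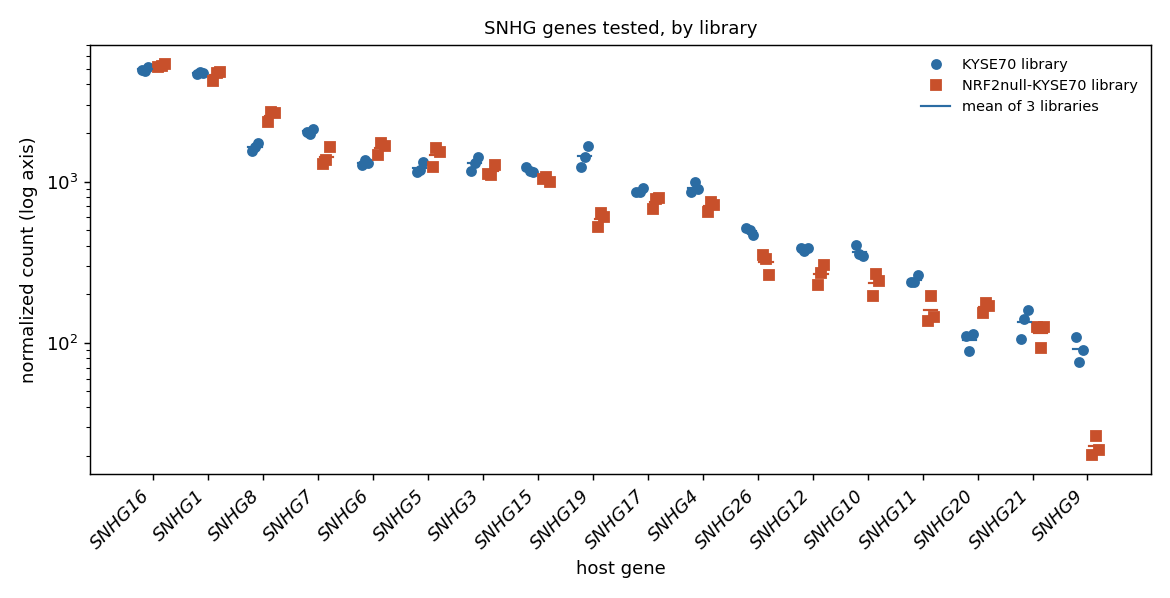
Normalized counts (log axis) of the 18 tested SNHG genes in each library, ordered by their mean, with KYSE70 as blue circles, NRF2null-KYSE70 as red squares and a bar at the mean of 3 libraries. SNHG19 and SNHG9 show the widest gaps, SNHG8 is higher in the null line, and SNHG1 overlaps.

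Of the MIRHG genes that stayed within the fold threshold, the 6 with the highest counts held 3 small rises and no fall by adjusted p. Of all genes tested, 29.3% rose and 28.3% fell by adjusted p. MIR205HG, whose microRNA miR-205 is characteristic of squamous and basal epithelium, was at 2622, 2910 and 3013 in KYSE70 and at 3298, 3568 and 3619 in NRF2null-KYSE70. The null libraries were all higher (log2 fold change 0.30, SE 0.064, limma adjusted p = 0.00158), and the log2 fold change was 0.19 after subtraction of the neighbourhood median. MIR4435-2HG, a long noncoding RNA gene that overlaps BCL2L11 (the cell death gene BIM) on the opposite strand, rose from 1601 ± 3.93 to 1932 ± 147 (log2 fold change 0.27, limma adjusted p = 0.00448). BCL2L11, which shares 727 exon bases with it, fell by 0.48 on the log2 scale (limma adjusted p = 2.64e-05). Reads of the shared bases cannot be assigned to one of the pair. The rise of MIR4435-2HG did not pass after subtraction of its neighbourhood median (limma adjusted p = 0.112).

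MIR3936HG rose from 128 ± 12.9 to 188 ± 16.7 (log2 fold change 0.55, limma adjusted p = 0.0116). Its call was lost without NRF2null-KYSE70 library 2 (limma adjusted p = 0.0510). SLC22A5, the carnitine transporter gene that starts 460 bases away on the other strand, was at 1001 ± 46.8 against 919 ± 93.4 (limma adjusted p = 0.236). This pair shares 327 exon bases, and reads there cannot be assigned to one of the pair.

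MIR600HG (179 ± 14.4 against 205 ± 78.9), MIR22HG (187 ± 20.8 against 189 ± 26.3) and MIRLET7BHG (147 ± 19.8 against 110 ± 26.8) did not pass the test and overlapped between the lines. Without NRF2null-KYSE70 library 3, at 140.4 the highest of its line, MIRLET7BHG passed (limma adjusted p = 0.0275). For MIR600HG the spread of the null line came from library 1, at 294, beside 144 and 177 in the others. MIR17HG, the host of the miR-17 to miR-92a cluster, was at 72.4 ± 8.12 against 78.2 ± 18.1 (log2 fold change 0.09, limma adjusted p = 0.77). MIR4453HG was at 159 ± 21.3 against 87.3 ± 17.5 and fell short of the fold threshold (log2 fold change -0.87, limma adjusted p = 0.00289), whereas FBXW7, which starts 172 bases away in the other direction, rose by 0.54 (limma adjusted p = 1.73e-05). MIR17HG and MIR4453HG were named after their values were seen.

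Added up over the 21 tested MIRHG genes, the normalized counts were 6079, 6386 and 6722 in KYSE70 and 7261, 7400 and 7209 in NRF2null-KYSE70. The sums did not overlap, and MIR205HG alone held a large part of them in every library.

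Across all tested host genes, 34 pairs of a host and a protein-coding gene that overlapped it or started within 1000 bases on the other strand were found, and the neighbour was tested in 23. Of these 23 neighbours 15 differed by adjusted p (65.2%, beside 57.6% of all genes) and 5 were past the threshold (21.7%, beside 14.7%), namely DPYD, PRSS12, SEC14L1, TNFAIP8L3 and CYP19A1. In the last 2 pairs the host was MIR4713HG, at 38.0 ± 9.66 against 24.9 ± 10.1, which did not pass the test (limma adjusted p = 0.18), while TNFAIP8L3 rose (1.82) and CYP19A1, the aromatase gene, fell (-1.61). Before any subtraction, neighbours moved the same way as the host (DPYD, BCL7C, RPS2, TRAF7) or the other way (BCL2L11, FBXW7).

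The table also held 78 entries for the small RNAs themselves inside the tested hosts. Some small RNAs, such as SNORA17B and SNORA16A, had 2 entries at the same place, so the number of distinct small RNAs is lower. Reads of fragmented long RNA were sequenced, and 58 of the 78 had no read. The annotated exons of SNHG1, SNHG8, SNHG9, SNHG15 and SNHG19 cover the whole gene. No small RNA entry inside these hosts had a read. Whether reads on bases shared with host exons were left out of the counts was not stated. An entry without reads therefore does not show that the small RNA was absent. Only 4 of the 78 entries reached the level for testing, and 0 of them had a limma adjusted p under 0.05, while 2 had an unadjusted p under 0.05. DESeq2 called 0 and edgeR called 1, SNORA71B in SNHG17 (log2 fold change -1.71, edgeR adjusted p = 0.0374). SNORD93 in SNHG26 was at 22.2, 29.0 and 35.9 in KYSE70 and at 6.09, 18.6 and 16.0 in NRF2null-KYSE70, without overlap (log2 fold change -1.15, limma adjusted p = 0.0561), and its host had fallen by 0.65. The levels of mature microRNAs and snoRNAs were not measured.

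The proteins and other genes around these hosts give the rest of the pathway. Of 20 other snoRNA host genes 8 rose and 5 fell by adjusted p (65.0% in all, beside 57.6% of all genes, 29.3% higher and 28.3% lower), and their median log2 fold change was -0.00897. GAS5, a noncoding snoRNA host, rose from 5624 ± 198 to 8812 ± 1318 (log2 fold change 0.64, limma adjusted p = 4.17e-05) and EIF4A2, a translation initiation helicase gene, by 0.86 (3.17e-08). GAS5 was named after its values were seen.

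NOP56, which carries snoRNAs and also encodes a core protein of the snoRNA particle, fell from 16805 ± 359 to 7112 ± 76.6 (log2 fold change -1.24, limma adjusted p = 1.56e-10), in a neighbourhood with a median of -0.93, and by 0.31 once that was subtracted. Its partner NOP58 fell by 0.49 (limma adjusted p = 1.40e-06) with neighbours at 0.07. Of the 18 snoRNA particle and assembly genes, NOP56 included, 6 rose and 5 fell (61.1%, beside 57.6%), with a median of -0.0124.

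Of the 18 genes for microRNA processing and action 5 rose and 6 fell (61.1%, beside 57.6%), with a median of -0.0801. AGO2, the argonaute that cuts target RNA, rose from 2663 ± 115 to 6522 ± 965 (log2 fold change 1.28, limma adjusted p = 5.80e-08), or 0.65 after subtraction of a neighbourhood median of 0.63. DGCR8 fell by 0.92 (limma adjusted p = 1.07e-07) and TARBP2, a partner of DICER1, by 1.10 (1.49e-06), or by 0.53 after subtraction of a neighbourhood median of -0.57, both named after their values were seen. LIN28B, which blocks the maturation of let-7, had no read in any KYSE70 library and was at 38.5, 6.86 and 34.2 in NRF2null-KYSE70, at least 9.31-fold higher when 3 reads are set in each parental library (a bound that covers counting error only).

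Of 15 nonsense-mediated decay factors 2 rose and 3 fell (33.3%, beside 57.6%, median -0.0508), led by RBM8A of the exon junction complex (-0.49, limma adjusted p = 9.86e-07) and SMG9, a partner of the kinase SMG1 (-0.27, 0.0173), whose call was lost with no trend and without KYSE70 library 1 or 2 or NRF2null-KYSE70 library 3. After subtraction of its neighbourhood median of 0.50, SMG9 was at -0.77. Of 17 tested genes that host microRNAs without carrying HG in their symbol, 6 rose and 5 fell (64.7%, beside 57.6%, median 0.063). PANK3, a pantothenate kinase gene that carries a miR-103a hairpin in an intron, rose by 0.86 (limma adjusted p = 9.79e-08) and DLEU2, the host of miR-15a and miR-16-1, fell by 0.78 (3.38e-05).

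**Figure D4:**
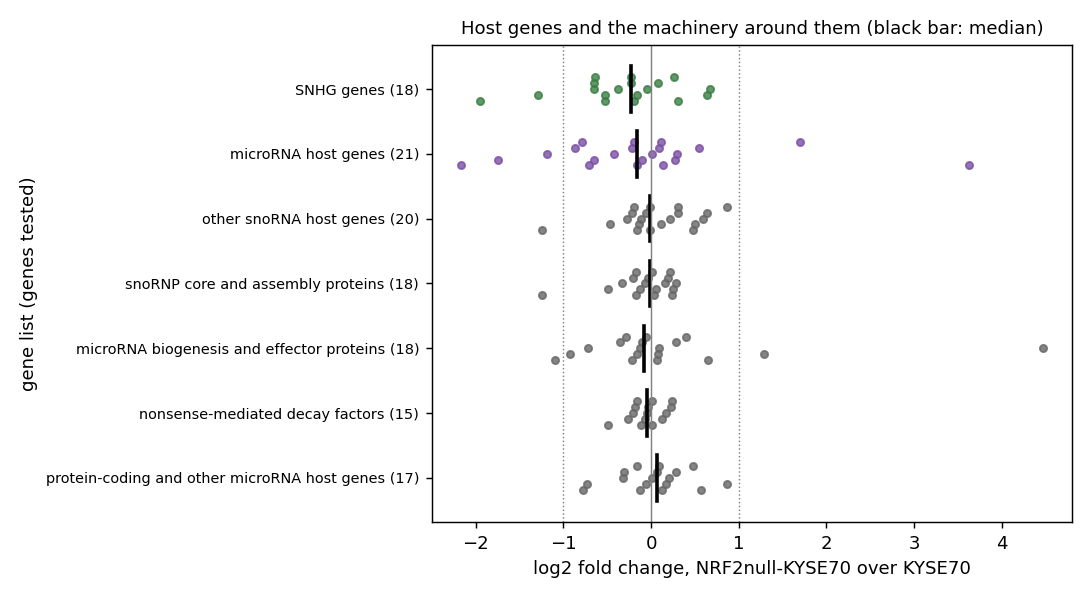
Log2 fold changes of NRF2null-KYSE70 over KYSE70 for the tested genes of each list (1 point a gene, black bar at the median). The medians lie between -0.226 (SNHG genes) and 0.063 (other microRNA hosts), and the far right point is LIN28B, which had no read in KYSE70, so that its fitted value depends on the pseudocount.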

How the data were processed

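RNA-seq libraries of KYSE70 and NRF2null-KYSE70 (3 each) were analysed from 1 table. According to the methods and the submitters' processing notes, reads were checked with FastQC (0.11.5), trimmed with cutadapt (1.12), aligned with STAR (2.6.90c) to hg38 and counted per gene with featureCounts (1.5.1). The methods name a RefSeq annotation, while the table gives Ensembl identifiers with symbols. The use of strand and the treatment of reads with several alignments, or on bases shared by genes, were not given in the sources used here. The deposited values are a signal: the authors divided read counts per gene by 1 DESeq2 size factor per library. All values (100%) were whole multiples of 1 read within 0.01 reads, so whole reads were recovered. Libraries are numbered by table order. Replicate pairs of a line differed beyond sampling noise (chi-square per degree of freedom 4.59 to 23.4 over 6 pairs), so no library was merged.

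Genes with a mean of at least 10 were tested with limma (3.58.1, lmFit and eBayes with a trend, R 4.3.3) on log2 values of the normalized count plus a pseudocount of 1. The model held no term but the line, and p-values were adjusted by Benjamini-Hochberg over all of them. The code was tested on simulated data. Where a symbol repeated, the row with the highest mean was kept. Positions, exon lengths and neighbours came from GENCODE v44 on hg38, which held 84 of the 87 genes, and the neighbourhood median is over the 40 nearest tested protein-coding genes on the chromosome. The genes named are NFE2L2, every host gene past the threshold, the 8 SNHG and 6 MIRHG genes with the highest mean among the others, the 2 largest changes of each companion list, and the neighbours and small RNA genes of these. The members and the lists (other snoRNA hosts, snoRNA particle proteins, microRNA processing, nonsense-mediated decay, other microRNA hosts and cell type markers) were chosen with earlier results of these data known, and 1 marker gene is not reported here. The alternatives changed the pseudocount (0.1 or 5) or the filter (none, or a mean of 50), or used TMM, total and quantile scaling, no trend, a test against the fold threshold (treat), DESeq2 (1.42.0) and edgeR (4.0.16) on whole reads, the removal of 1 library at a time, and subtraction of the neighbourhood median.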

Additional observations from a re-analysis of the deposited data

How the results depend on the processing

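The 7 host genes past the threshold remained the same 7 under pseudocounts of 0.1 and 5, TMM, total and quantile scaling, no trend, DESeq2, edgeR and without each KYSE70 library. Without a filter there were 9, with MIR2052HG and MIR497HG added, and with a filter at 50 there were 5, since MIR100HG and MIR31HG were not tested. Without 1 NRF2null-KYSE70 library there were 6 to 8. MIR100HG was lost without library 1 or 2, and MIR4453HG was gained without library 3. After subtraction of the neighbourhood median there were 8, with SNHG19 lost and MIR4453HG and MIR4713HG gained. Adjusted p alone gave 24, and treat gave 3. Over all genes the filter at 50 left 1511 calls, because fewer genes were tested.

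The MIRHG median turned to 0.121 without a filter and to 0.0138 with a filter at 50, and ranged from -0.272 to 0.0823 when 1 library was left out, positive without NRF2null-KYSE70 library 3. The SNHG median was -0.301 with total scaling and ranged from -0.316 (without KYSE70 library 1) to -0.203. The count of small RNA genes was 1 with a pseudocount of 5, total scaling, edgeR and the neighbourhood median subtracted, and 0 to 1 with 1 library left out. Of the decay factors 1 differed with no trend, 8 with the neighbourhood median subtracted, and 2 (without KYSE70 library 2) to 8 (without NRF2null-KYSE70 library 1) with 1 library left out. Among genes that passed no test, MIR22HG turned to -0.0613 with total scaling and ranged from -0.089 to 0.109 with 1 library left out (negative without KYSE70 library 1 or 2 or NRF2null-KYSE70 library 1, at -0.0562, -0.00165 and -0.089), SNHG16 to -0.0504 and SNHG1 to 0.0429 after the neighbourhood median was subtracted, and, with 1 library left out, SNHG1 ranged from -0.0792 to 0.0118 and MIR600HG from -0.159 to 0.353, both of opposite sign only without NRF2null-KYSE70 library 1. Apart from the filters, the cause was not tested. No paired analysis was possible because the columns carry no replicate numbers. Low counts limit the hosts near or under the filter, such as MIR181A2HG and MIR100HG.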
